A study of Homo sapiens with 12 samples.

Results

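ATP-binding cassette (ABC) transporter genes were followed in Huh7 cells in which FAM111B had been knocked down. The family was taken by name: every listed gene whose symbol is ABC, a subfamily letter from A to G and a number, and whose description does not call it a pseudogene. This gave 45 genes of the 60666 listed. A further 17 entries with ABC names, 14 pseudogenes, 2 antisense genes and 1 readthrough gene, were set aside. Huh7 is an established human hepatocellular carcinoma (HCC) line. The control group (3 libraries) carried a control lentiviral construct and the shFAM111B group (3 libraries) a lentiviral short hairpin RNA against FAM111B, and the study describes both as stable, puromycin-selected lines, with no other genotype, treatment or time point. A single hairpin is named by the study, and nothing in the labels says whether the 3 libraries of a group came from separate cultures. Hep3B libraries belong to the same series and were not analysed here.

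ABC proteins burn ATP to move substrates across membranes, and most of them are exporters. In hepatocytes those of the canalicular membrane secrete bile salts, phospholipid, cholesterol and conjugated drugs into bile, whereas those of the basolateral membrane return conjugates to the blood. Others sit in mitochondria, peroxisomes or lysosomes, and the members of subfamilies E and F have no membrane domain and act on ribosomes.

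The deposited values were TPM (transcript abundance per gene, corrected for length and scaled to a fixed total), which hold no read depth, and with no depth no counting error could be attached to a value. In these bulk libraries, fewer cells of a kind and less RNA per cell cannot be told apart. FAM111B itself was listed at 7.84, 8.29 and 7.99 TPM in the control libraries and at 0.96, 1.13 and 0.84 TPM in the shFAM111B libraries, a log2 fold change of -2.20 ± 0.113 (SE). Of 9 hepatocyte and liver tumour genes all stood at 38.5 TPM or more in every library, with AFP the highest of them in each, while KRT7 of bile ducts, CD3E of T cells and VWF and CDH5 of endothelium were at or near 0. Of the 9 hepatocyte and liver tumour genes 4 were higher and 5 lower in shFAM111B at P under 0.05 in limma. AFP went from a mean of 7274 to 23062 TPM and ALB from 6444 to 4161 TPM. Of 15 genes of other cell types 8 were expressed highly enough to be tested, and at P under 0.05 in limma 6 were higher and 1 lower in shFAM111B. Among all tested genes 22.1% were higher and 52.0% lower at this limit. KRT19 of bile ducts went from 31.0 ± 3.11 to 166.2 ± 18.9 TPM and SOX9 from 58.5 ± 0.568 to 22.1 ± 0.519 TPM (SD, n = 3 each). EPCAM of bile ducts (0.34), CD68 (0.45) and LYZ (0.21) of leucocytes and COL1A2 (0.53) and PDGFRB (0.54) of fibroblasts were higher by less than 2-fold, as log2 fold changes. PECAM1 of endothelium (0.41, adjusted p = 0.109, limma) was tested and did not pass. Of untested fibroblast genes, COL1A1 was at 0.57 to 0.76 TPM in control and 0.21 to 0.32 TPM in shFAM111B libraries, and ACTA2 overlapped between the groups. PTPRC of leucocytes, untested, was at 0.04 to 2.39 TPM in control and at 0.02 TPM or less in shFAM111B libraries. The summed TPM of the leucocyte genes ranged from 276 to 284 in control and from 308 to 341 in shFAM111B libraries, and that of the bile duct genes from 119 to 125 and from 208 to 244. The libraries were made from a cell line and not from tissue, and the source of these transcripts was not tested. Mitochondrially encoded genes took 19.7% to 20.2% of the TPM in control libraries and 7.37% to 8.06% in shFAM111B libraries. Short non-coding RNA took 4.79% and 7.09% in shFAM111B libraries 1 and 2, against 0.167% to 0.516% in the other 4. These shares enter every TPM value.

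A gene was tested where at least 3 libraries reached 1 TPM, which kept 14394 genes and 30 of the 45 ABC genes. Tests were run with limma on log2(TPM + 1), so that fold changes of low genes are understated, and a call needed a 2-fold change and P under 0.05, the limits the study used. ABC genes were called lower in 7 cases and higher in 1. The 7 were ABCE1, ABCG2, ABCB10, ABCC4, ABCC2, ABCC3 and ABCF2, and the 1 was ABCA7. They made up 23.3% and 3.33% of the 30 tested, beside a background of 23.7% called lower and 6.82% called higher among all tested genes. Both shares lie near the background or under it, and what follows concerns single members. At the same limits of fold and P the study's own Huh7 comparison listed slightly more genes higher than lower, whereas 3409 genes were lower and 981 higher here. The methods differed, since the submitters' notes name DESeq2 and limma on TPM as deposited was used here. On the median-of-ratios scale described below, 1798 genes were lower and 2030 higher. Rescaled over nuclear genes other than short non-coding RNA, which takes out both shares given above, 11 ABC genes were called lower and 1 higher, beside 29.2% and 5.77% of all genes. With shFAM111B libraries 1 and 2 both left out, 6 ABC genes were called lower and 1 higher, beside 25.2% and 8.54% of all genes. That fit holds a single shFAM111B library, number 3, which is assumed to vary as the controls do.

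Another 13 ABC genes passed P under 0.05 with less than a 2-fold change, 11 of them lower and 2 higher (ABCB6 and ABCD4), and 9 did not pass. With no limit on the fold, 18 of the 30 were thus lower and 3 higher at P under 0.05, beside 52.0% and 22.1% of all tested genes. The median log2 fold change was -0.45 over the 30 ABC genes and -0.36 over all tested genes. The TPM ranges of the groups did not touch in 23 ABC genes (76.7%), 19 of them lower and 4 higher in shFAM111B, beside 75.2% of all tested genes.

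The median tested gene lay 0.36 lower in shFAM111B on the log2 scale, and the direction of small changes differed between scales. Median-of-ratios scaling, which sets the libraries so that the typical gene is level, moved the median of all genes to 0.03. On that scale 12.5% of all genes were called lower and 14.1% higher, a share of higher calls of 53.0% against 22.3% on the deposited scale. Under it 3 ABC genes were called lower (ABCE1, ABCB10 and ABCG2) and 2 higher (ABCA7 and ABCB6). A second check removed the trend of the fold change with transcript length and expression, after which 9.14% of all genes were called lower and 9.6% higher. Then 1 ABC gene was called lower (ABCE1) and 3 higher (ABCA7, ABCB6 and ABCA12). ABCA12 reached 1 TPM in only 1 control library, so it was tested mainly through the group where it was higher. ABCE1 and ABCA7 were called in the same direction under all 17 alternatives tried.

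**Figure D1:**
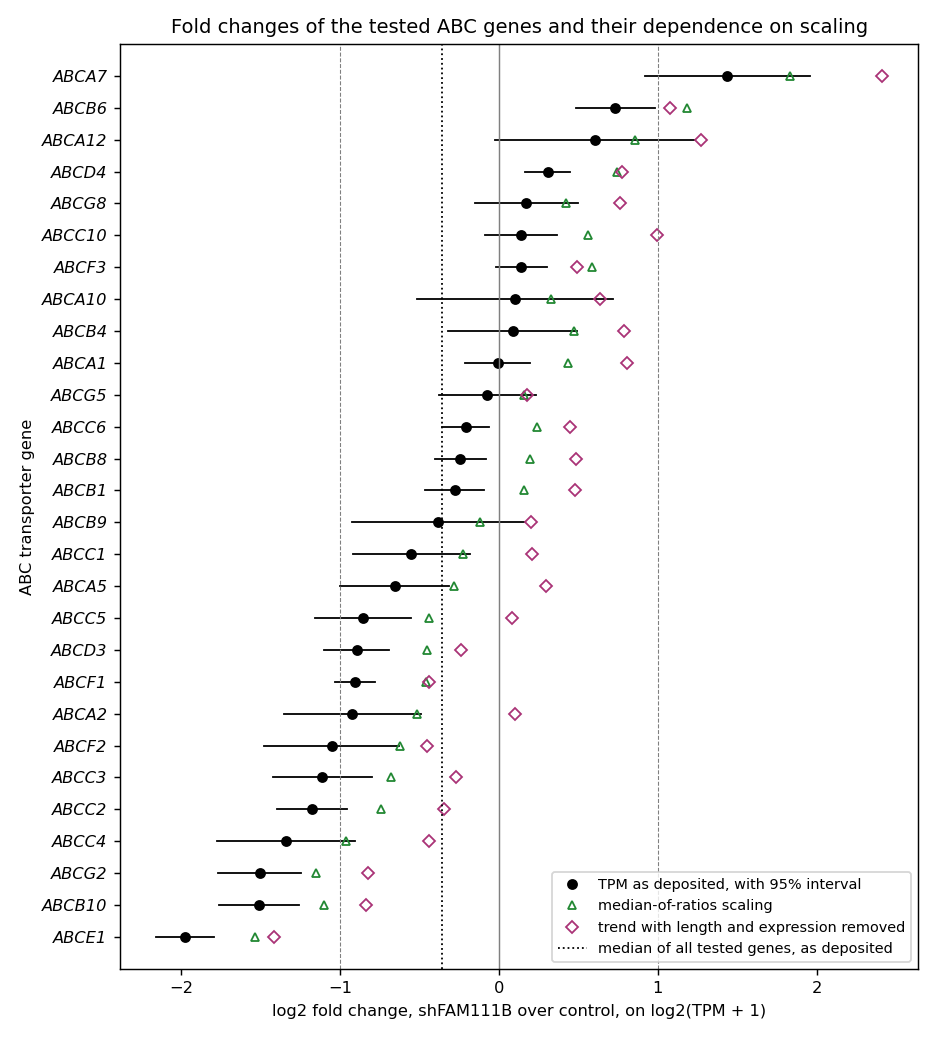
Log2 fold change (horizontal axis, shFAM111B over control, on log2(TPM + 1)) of 28 tested ABC genes (vertical axis, by size). Black points and bars are the deposited TPM with 95% intervals, green triangles median-of-ratios scaling and purple diamonds the values once the dependence on length and expression was taken out. Dashed lines mark 2-fold and the dotted line the median of all tested genes, -0.36. ABCE1 stays below -1 and ABCA7 above 1 on all 3 scales.

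In control cells the ABC transcripts with the highest mean TPM were those of ABCE1 and ABCF1, which have no membrane domain, although ABCF1 overlapped ABCC6 in range. Of the 30 tested members ABCE1 had the lowest log2 fold change. ABCE1, which splits ribosomes for recycling after termination, stood at 80.9, 77.2 and 70.8 TPM in control libraries. In shFAM111B libraries it stood at 17.3, 19.5 and 19.1 TPM. Every knockdown library was thus far under every control library. The means were 76.3 ± 5.11 and 18.6 ± 1.21 TPM (SD, n = 3 each), 4.10-fold lower, with a log2 fold change of -1.98 ± 0.076 (SE) and an adjusted p of 2.95e-06 (limma). On the median-of-ratios scale the change was -1.54, and after removal of the trend -1.42. ABCE1 (chr4:145097932-145129179 in GENCODE v29 on GRCh38, plus strand) overlaps OTUD4 and ANAPC10 on the other strand, whose mean TPM went from 11.0 to 2.07 and from 21.0 to 16.7. The sources used here do not state whether reads were counted by strand, so reads of the overlaps may be shared.

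ABCF1, a binding partner of the initiation factor eIF2, was listed at 64.4, 59.4 and 63.2 TPM in control and at 33.0, 32.6 and 32.7 TPM in shFAM111B libraries. The knockdown values were close to each other and all below the controls. Its log2 fold change of -0.91 ± 0.054 (SE; adjusted p = 9.79e-06, limma) passed the test but not the 2-fold limit. ABCF2 was listed at 25.3, 22.0 and 36.1 TPM in control and at 11.2, 12.9 and 13.8 TPM in shFAM111B libraries. Control library 3 was well above the other controls. The call of ABCF2 (-1.05 ± 0.179, SE) was lost without that library, without shFAM111B library 1, and on the median-of-ratios scale, where the change was -0.62. After the trend was removed the change was -0.45 (adjusted p = 0.0597, limma). A readthrough gene, ABCF2-H2BE1, spans ABCF2 on the same strand and went from 14.4 ± 2.39 to 10.5 ± 2.56 TPM (SD, n = 3 each), and the split of reads between them is uncertain.

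ABCF3, a relative of yeast GCN20, which acts in the response to amino acid starvation, did not follow the others. It was listed at 43.8, 39.5 and 44.6 TPM in control and at 49.3, 45.8 and 45.9 TPM in shFAM111B libraries. The knockdown values were all slightly above the controls, but the log2 fold change of 0.14 had a 95% interval from -0.02 to 0.30 and an adjusted p of 0.102 (limma). Summed over the 4 genes, the TPM of this group went from 209.1 ± 9.51 to 111.0 ± 0.407 (SD, n = 3 each). The ratio of ABCE1 to ABCF3 TPM, chosen after the values were seen, went from 1.80 ± 0.19 to 0.398 ± 0.0418, with no overlap between the groups.

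Of the 7 canalicular exporters 6 were tested, 2 were called lower and none higher (all genes, 23.7% and 6.82%). ABCG2, the breast cancer resistance protein, which exports urate, conjugates and many kinase inhibitors, was listed at 7.33, 7.70 and 6.92 TPM in control libraries. In shFAM111B libraries it was listed at 1.87, 1.77 and 2.15 TPM. The groups were far apart, at 3.79-fold, with a log2 fold change of -1.51 ± 0.11 (SE; adjusted p = 2.24e-05, limma). The call held on the median-of-ratios scale (-1.15) and was lost after the trend was removed (-0.83). ABCC2 (MRP2), the canalicular exporter of bilirubin glucuronide and glutathione conjugates, was listed at 36.9, 36.7 and 30.9 TPM in control and at 16.0, 14.2 and 14.2 TPM in shFAM111B libraries. Its groups did not overlap either, at -1.18 ± 0.0932 (SE; adjusted p = 3.18e-05, limma). On the median-of-ratios scale its change was -0.74, under the 2-fold limit, and after the trend was removed -0.35 (adjusted p = 0.016, limma).

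ABCB1, the multidrug pump P-glycoprotein, had a smaller fold change than ABCG2. It was listed at 24.3, 24.4 and 21.0 TPM in control and at 18.4, 19.3 and 19.1 TPM in shFAM111B libraries. All knockdown values were below the controls, yet the log2 fold change of -0.28 ± 0.0782 (SE; adjusted p = 0.0146, limma) turned to 0.15 on the median-of-ratios scale. The ratio of ABCG2 to ABCB1 TPM within a library, chosen after the values were seen, went from 0.316 ± 0.0136 to 0.102 ± 0.0104 (SD, n = 3 each), and a scaling of whole libraries cancels in it. ABCB4, the phospholipid floppase, lies next to ABCB1 on chromosome 7. It was listed at 5.30, 6.56 and 4.79 TPM in control and at 7.51, 5.53 and 4.94 TPM in shFAM111B libraries. These ranges overlapped, and the 95% interval of its log2 fold change ran from -0.32 to 0.49.

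ABCG5 and ABCG8 form the heterodimer that exports plant and animal sterols. ABCG5 was listed at 1.04, 1.22 and 1.05 TPM in control and at 1.00, 1.01 and 0.98 TPM in shFAM111B libraries. ABCG8 was listed at 0.94, 1.27 and 1.01 TPM in control and at 1.43, 1.33 and 1.24 TPM in shFAM111B libraries. Both stayed near the 1 TPM limit in every library and neither passed the test, with 95% intervals from -0.38 to 0.23 for ABCG5 and from -0.15 to 0.50 for ABCG8. The genes lie head to head on chromosome 2, with RefSeq start sites 131 bases apart, and their annotated gene bodies overlap. The stretch between them that holds no annotated exon (GRCh38.p14, chr2:43838866-43838963, 98 bases, RefSeq, written in the direction of ABCG8) is given below because it is common to both. It holds none of the motifs searched for.

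ABCG5-ABCG8: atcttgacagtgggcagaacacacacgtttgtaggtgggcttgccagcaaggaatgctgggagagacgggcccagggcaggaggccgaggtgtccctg

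ABCB11, the bile salt export pump, was not tested. It was listed at 6.19, 0.49 and 0.60 TPM in control and at 0.10, 0.07 and 12.5 TPM in shFAM111B libraries. It was high in 1 library of each group and under 1 TPM in the other 4, so its level followed the library and not the group. The summed TPM of the 7 canalicular genes, 75.5 ± 8.21 in control and 48.2 ± 6.15 in shFAM111B (SD, n = 3 each), includes this gene.

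Of the 6 basolateral exporters, all tested, 2 were called lower and none higher (all genes, 23.7% and 6.82%). ABCC4 (MRP4), which carries cyclic nucleotides, bile salts and conjugates, was listed at 10.3, 9.46 and 9.07 TPM in control and at 2.48, 2.80 and 4.54 TPM in shFAM111B libraries. The highest knockdown value was still well under the lowest control, with a log2 fold change of -1.34 ± 0.184 (SE; adjusted p = 0.000471, limma). ABCC3 (MRP3), which carries glucuronides, was listed at 33.8, 25.0 and 31.8 TPM in control and at 13.6, 14.6 and 11.8 TPM in shFAM111B libraries. Its log2 fold change was -1.11 ± 0.132 (SE; adjusted p = 0.000222, limma). On the median-of-ratios scale both were under the limit, at -0.96 for ABCC4 and -0.68 for ABCC3. After the trend was removed neither passed at an adjusted p of 0.05, at -0.44 for ABCC4 (adjusted p = 0.0732, limma) and -0.27 for ABCC3 (adjusted p = 0.101, limma). With shFAM111B library 3 (4.54 TPM of ABCC4) as the only knockdown library left, ABCC4 was at -0.94. ABCC5 (-0.86) and ABCC1 (-0.55) were lower with adjusted p of 0.000696 and 0.0151 (limma) and no 2-fold change, and ABCC10 gave 0.14 with a 95% interval from -0.09 to 0.37.

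ABCC6, an exporter on which ATP release from the liver depends, was the third most abundant ABC gene by mean TPM in control cells. It was listed at 57.2, 56.8 and 59.9 TPM in control and at 51.7, 46.5 and 51.9 TPM in shFAM111B libraries. The knockdown values were below the controls, at -0.21 ± 0.0621 (SE; adjusted p = 0.0185, limma), and the change turned to 0.24 on the median-of-ratios scale. Its level is uncertain because of near-identical pseudogenes, which can take or give reads. ABCC6P1 went from 35.6 ± 1.90 to 25.0 ± 2.38 TPM and ABCC6P2 from 13.4 ± 2.28 to 21.5 ± 0.13 TPM (SD, n = 3 each), so the 3 copies did not keep 1 ratio. ABCC6P2 stood at 0.230 ± 0.0328 of ABCC6 in control and at 0.432 ± 0.0276 in shFAM111B libraries, with no overlap.

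**Figure D2:**
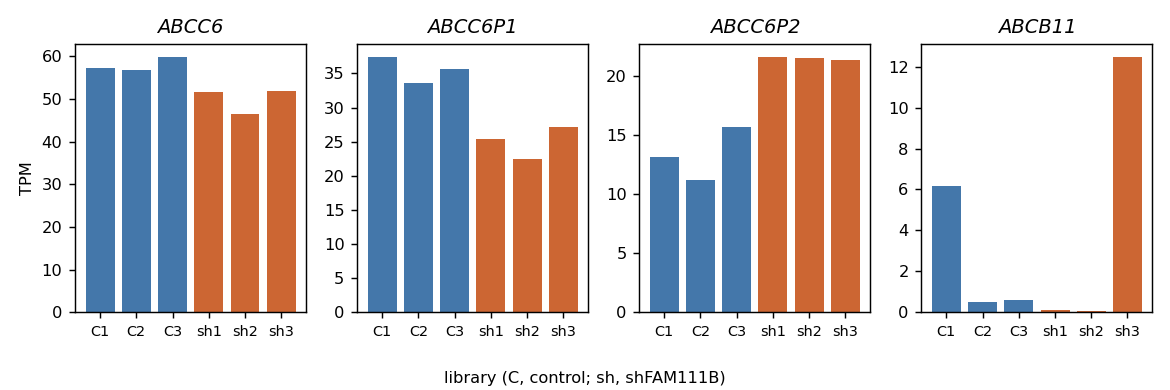
TPM (vertical axis, each panel on its own scale from 0) of ABCC6, of its pseudogenes ABCC6P1 and ABCC6P2 and of ABCB11 in each library (horizontal axis; C, control, blue; sh, shFAM111B, orange). ABCC6P2 is above every control in all 3 shFAM111B libraries, whereas ABCB11 is high in C1 and sh3 only.

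Among the 12 sterol and lipid exporters 6 were tested, 1 was called higher and none lower (all genes, 6.82% and 23.7%). ABCA7, a phospholipid exporter linked to Alzheimer's disease, was listed at 4.14, 3.14 and 6.32 TPM in control and at 15.7, 11.5 and 13.8 TPM in shFAM111B libraries. Every knockdown value was well above the highest control, and the means differed 3.02-fold, at 1.44 ± 0.22 (SE; adjusted p = 0.000819, limma). The change was 1.83 on the median-of-ratios scale and 2.41 after the trend was removed. Its longest annotated transcript has 6816 nt. ABCA1, a close relative and the exporter of cholesterol and phospholipid to apolipoprotein A-I, was listed at 35.4, 42.0 and 34.5 TPM in control and at 35.8, 36.5 and 38.7 TPM in shFAM111B libraries. The ranges of ABCA1 overlapped, and its log2 fold change of -0.01 (95% interval from -0.21 to 0.20) turned to 0.44 on the median-of-ratios scale. The ratio of ABCA7 to ABCA1 TPM, chosen after the values were seen, was 0.125 ± 0.0545 in control and 0.371 ± 0.0632 in shFAM111B libraries (SD, n = 3 each).

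ABCA2 and ABCA5, which are found in endosomes and lysosomes, were lower with adjusted p of 0.00289 and 0.00509 (limma), at -0.92 and -0.66. ABCA12, the lipid exporter of the epidermis, reached 1 TPM in all 3 shFAM111B libraries and in 1 control, so it was tested mainly through the group where it was higher, and its change of 0.61 had an adjusted p of 0.0763 (limma). ABCA10 stood between 0.48 and 1.59 TPM with no difference that passed. The cholesterol exporter ABCG1 was at 0.10 TPM or less in every library. The summed TPM of the 12 genes was 65.1 ± 4.57 in control and 65.0 ± 4.45 in shFAM111B libraries (SD, n = 3 each).

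The mitochondrial members went in different directions. ABCB10, an inner membrane transporter needed for haem synthesis in red cell precursors, was listed at 17.6, 16.9 and 16.4 TPM in control and at 4.59, 6.01 and 5.39 TPM in shFAM111B libraries. It was 3.18-fold lower with no overlap, at -1.51 ± 0.106 (SE; adjusted p = 1.90e-05, limma). The change was -1.10 on the median-of-ratios scale and fell short of the limit after quantile normalization (-0.998) and after removal of the trend (-0.84). ABCB8, part of a potassium channel of the inner membrane, stood at -0.24 (adjusted p = 0.0148, limma), under 2-fold, and turned to 0.19 on the median-of-ratios scale.

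ABCB6, a porphyrin transporter found in the outer mitochondrial membrane and in other membranes, went the other way. It was listed at 47.7, 43.4 and 53.2 TPM in control and at 81.3, 71.5 and 89.2 TPM in shFAM111B libraries. All knockdown values were above the controls, at 1.68-fold and a log2 fold change of 0.73 ± 0.104 (SE; adjusted p = 0.000566, limma), and the 2-fold limit was passed on the median-of-ratios scale (1.18). The ratio of ABCB6 to ABCB10 TPM, chosen after the values were seen, went from 2.84 ± 0.362 to 15.4 ± 3.08 (SD, n = 3 each).

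ABCD3, the peroxisomal importer of branched-chain fatty acids and bile acid precursors, was lower with less than a 2-fold change, at -0.90 ± 0.086 (SE; adjusted p = 7.86e-05, limma), with 40.3 to 43.4 TPM in control and 19.7 to 24.3 TPM in shFAM111B libraries. ABCD4, a lysosomal member needed for cobalamin (vitamin B12) export, was slightly higher at 0.31 ± 0.0594 (SE; adjusted p = 0.00266, limma), with 20.3 to 21.1 TPM in control and 25.1 to 26.4 TPM in shFAM111B libraries. ABCB9, the lysosomal peptide transporter, gave -0.38 with an adjusted p of 0.167 (limma). ABCB9 overlaps ARL6IP4 on the other strand, which was far more abundant (66.6 and 156.8 TPM on average), so its level is uncertain.

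**Figure D3:**
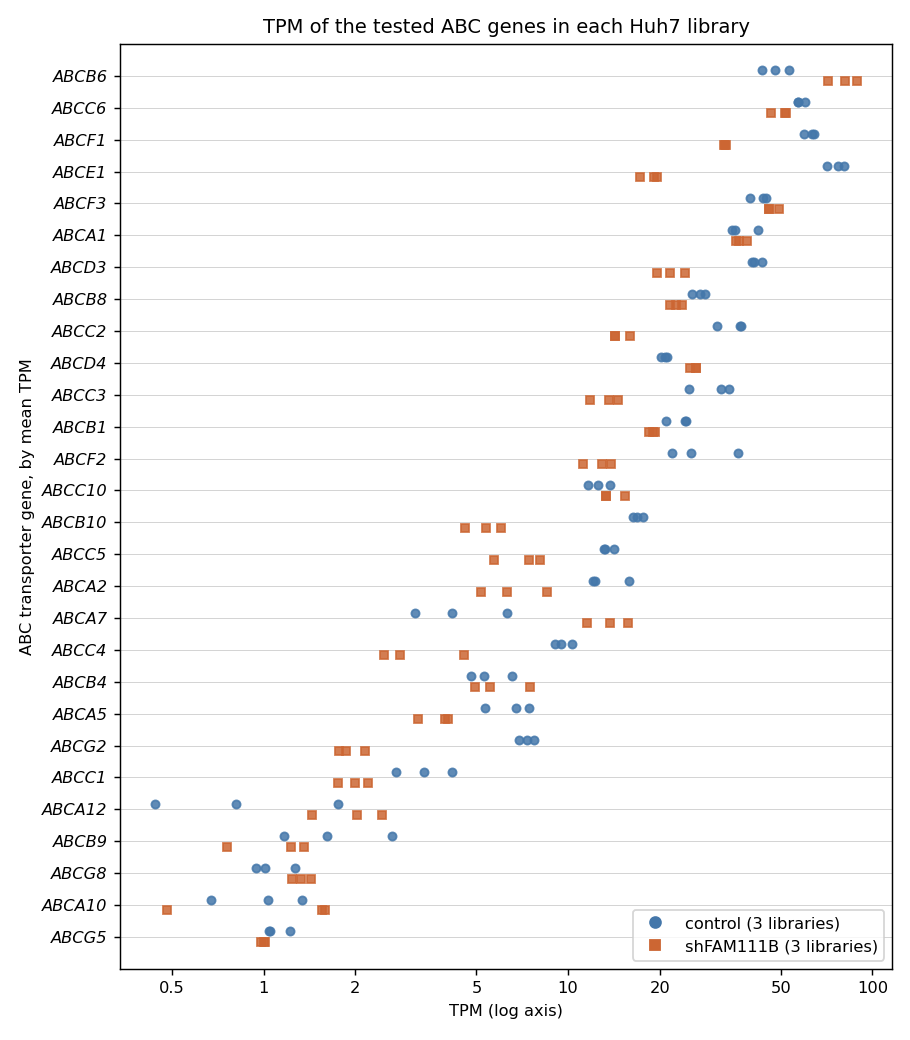
TPM on a log axis (horizontal) of 28 tested ABC genes (vertical axis, by mean TPM) in the 3 control libraries (blue circles) and the 3 shFAM111B libraries (orange squares). The groups of ABCE1, ABCG2 and ABCB10 are widely apart to the left, those of ABCA7 and ABCB6 to the right, and those of ABCA1 and ABCB4 overlap.

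Of the 15 untested members, 13 stayed under 1 TPM in every library, among them ABCC8 and ABCC12, which were listed at 0 throughout. The other two were ABCB11 and ABCA4, which reached 1.08 TPM in 1 control library. ABCC9, which with ABCC8 makes the sulphonylurea receptors of potassium channels, stood between 0.48 and 0.88 TPM. The neighbouring ABCA genes on chromosome 17 differed in level: ABCA5 had 6.49 and 3.73 TPM on average in control and shFAM111B cells, ABCA10 had 1.01 and 1.21 TPM, and ABCA6, ABCA8 and ABCA9 were at 0.57 TPM or less in every library.

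The order of the levels changed at the top. TPM are per length, and the order is of these values. The fold change still went with length over all tested genes (Spearman's correlation -0.459), so the order may depend on length. The place of ABCC6 is uncertain because of its pseudogenes. In control cells ABCE1 was first and did not overlap ABCF1, the next. ABCF1 overlapped ABCC6 in range, and from ABCB6 at rank 4 to ABCB8 at rank 11 each gene overlapped its neighbour. In shFAM111B cells ABCB6 was first and did not overlap ABCC6, the next, whereas ABCC6 and ABCF3 overlapped. ABCE1 was at rank 10 there and overlapped ABCB1, its neighbour. Summed over all 45 genes, the family held 661.9 ± 15.2 TPM in control and 488.3 ± 23.4 TPM in shFAM111B libraries (SD, n = 3 each).

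**Figure D4:**
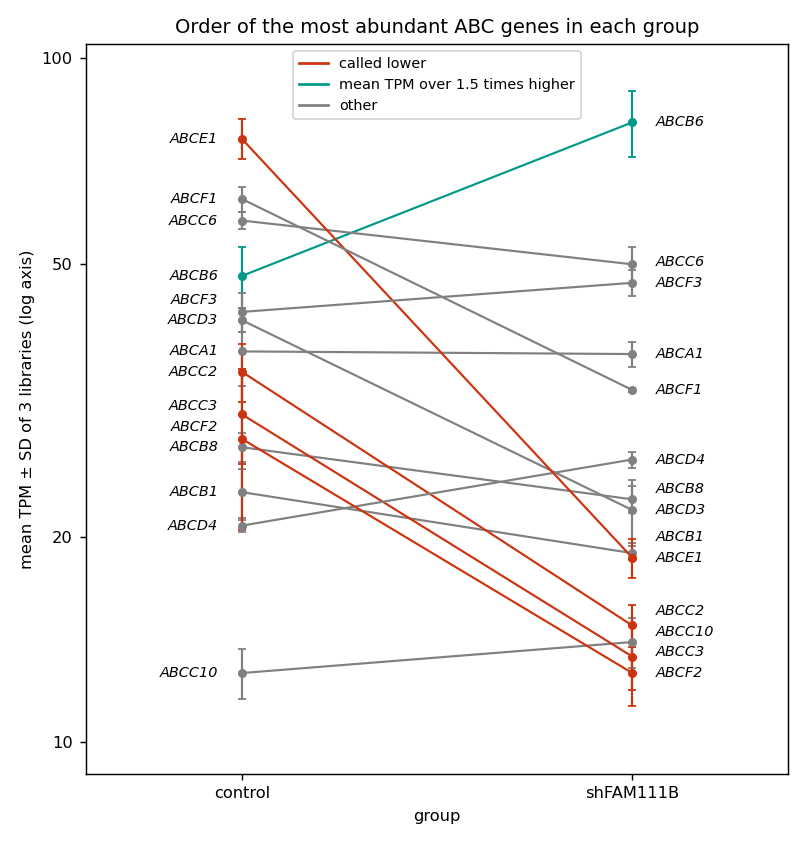
Mean TPM ± SD of 3 libraries on a log axis (vertical) in control and shFAM111B cells (horizontal axis) for the ABC genes at rank 12 or above in either group. Red lines are genes called lower and the green line is ABCB6, which goes from rank 4 to rank 1 while ABCE1 goes from rank 1 to rank 10.

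By subfamily the medians of the log2 fold change were 0.05 for A (6 tested), -0.28 for B (7), -0.86 for C (7), -0.91 for F (3) and -0.07 for G (3), and the single E member stood at -1.98. The spread within a subfamily was wide, from -0.92 to 1.44 in A and from -1.51 to 0.73 in B. Full transporters, which are a single chain with a coding sequence over 3000 nt, numbered 15, with a median of -0.28, 3 called lower and 1 higher. The 15 shorter ones, whose coding sequences ran from 1797 to 2535 nt, had 4 called lower and none higher. Among all tested genes 23.7% were called lower and 6.82% higher.

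The ABC genes were long, with a median longest transcript of 4933 nt against 3210 nt for all tested genes, and long genes tended to be lower in shFAM111B. Taken across genes, which share the 6 libraries and so are no replicates of each other, Spearman's correlation of the fold change with length was -0.459 over all tested genes and 0.0865 over the 30 ABC genes. Between 4000 and 8000 nt, the median log2 fold change was -0.78 over 4347 genes, of which 37.9% were called lower and 2.19% higher. The 17 ABC genes of those lengths had a median of -0.38, with 4 called lower and 1 higher. ABCE1, at 3921 nt, and ABCB10, at 3857 nt, are shorter than this range.

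A RefSeq promoter window (GRCh38.p14) was found for 35 of the 45 genes, 25 tested and 10 untested, and its 250 bases before the start site were examined. The tested genes had a median GC content of 64.4% and 20 CpG, the untested genes 46.2% and 3 CpG, and all 35116 windows 58.0% and 11 CpG. The windows of 3 genes that moved, free of annotated exons, are given for the contrast between them. They are ABCB10 (chr1:229558708-229558957, minus strand) and ABCC2 (chr10:99782390-99782639, plus strand), both called lower, and ABCA7 (chr19:1039857-1040100, plus strand), called higher. Each runs 5′ to 3′ in the direction of the gene, and capitals mark the GC box (GGGCGG), the CCAAT box, the E-box (CACGTG), an ETS site (CCGGAAG) or the TATA box (TATAAA) on either strand.

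ABCB10: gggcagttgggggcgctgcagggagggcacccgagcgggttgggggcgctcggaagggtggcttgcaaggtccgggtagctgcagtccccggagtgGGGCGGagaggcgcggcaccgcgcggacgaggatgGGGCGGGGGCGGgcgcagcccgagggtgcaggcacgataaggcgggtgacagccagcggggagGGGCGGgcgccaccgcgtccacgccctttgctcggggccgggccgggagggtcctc

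ABCC2: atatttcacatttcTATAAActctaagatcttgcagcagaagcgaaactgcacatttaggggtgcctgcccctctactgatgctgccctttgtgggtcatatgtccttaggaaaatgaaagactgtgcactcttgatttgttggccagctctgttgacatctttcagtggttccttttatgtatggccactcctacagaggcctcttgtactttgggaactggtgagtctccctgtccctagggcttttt

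ABCA7: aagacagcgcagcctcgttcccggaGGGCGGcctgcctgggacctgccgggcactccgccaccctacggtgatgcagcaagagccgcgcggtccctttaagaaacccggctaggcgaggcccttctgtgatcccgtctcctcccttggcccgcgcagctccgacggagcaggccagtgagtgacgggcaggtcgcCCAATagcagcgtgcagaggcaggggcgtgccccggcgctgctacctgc

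ABCB10 and ABCC2 were both called lower, yet their windows are unlike. That of ABCB10 has 77.2% GC, 29 CpG and 4 copies of the GC box, whereas that of ABCC2 has 45.6% GC, 1 CpG and none. The TATA letters of ABCC2 begin 236 bases before the start, and the CCAAT letters of ABCA7 begin 55 bases before it. Over the 35 ABC windows, the GC box was present in 48.6% (42.6% of all windows), the CCAAT box in 17.1% (32.0%), the E-box in 17.1% (6.34%), the ETS site in 11.4% (8.52%) and the TATA box in 17.1% (10.7%). The E-box reads the same on both strands, and its 6 windows were those of ABCA1, ABCA9, ABCB6, ABCB9, ABCC10 and ABCF1. A match is a description of the letters only.

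ABC proteins outside the naming rule were read for comparison. CFTR, a chloride channel of the ABC family, was called higher, at 0.94, 1.22 and 1.51 TPM in control and 3.69, 5.57 and 3.67 TPM in shFAM111B libraries (1.24 ± 0.184, SE; adjusted p = 0.000702, limma). Its control values lay near the 1 TPM limit, and it was not fitted where 1 TPM was required in every library. Among all tested genes 6.82% were called higher and 23.7% lower. TAP1 and TAP2, the peptide transporter of antigen presentation, did not pass, and TAP2 ranged from 4.79 to 22.0 TPM within the control group.

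Transporters that bring substrates into hepatocytes or exchange them were listed for 14 genes, of which 10 were tested, 2 called lower and 1 higher, with a median of -0.50, where 23.7% of all tested genes were called lower and 6.82% higher. The monocarboxylate carrier SLC16A1 was at 53.5 ± 2.15 and 20.7 ± 0.671 TPM in control and shFAM111B cells, and the organic anion carrier SLCO2B1 at 26.0 ± 3.31 and 11.8 ± 0.556 TPM. SLC51B, a subunit of the basolateral bile acid exporter, was at 33.7 ± 2.15 and 71.3 ± 8.23 TPM (all SD, n = 3), and was called higher at a log2 fold change of 1.05. On the median-of-ratios scale SLC51B alone of the 3 was called (1.498), with SLC16A1 at -0.89 and SLCO2B1 at -0.64. The call of SLC51B was lost over nuclear genes (0.93), after the trend was removed (0.53) and without shFAM111B library 3 (0.98), and that of SLCO2B1 was also lost without control library 3 (-0.97). The bile acid importer SLC10A1 was near 0 throughout.

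Of 16 nuclear receptors and other regulators of ABC genes, all tested, 5 were called lower and none higher (all genes, 23.7% and 6.82%), with a median of -0.67. AHR, the receptor for dioxins and a known inducer of ABCG2, was at 30.4 ± 2.50 and 3.40 ± 0.307 TPM (log2 fold change -2.83). NFE2L2 (NRF2), the regulator of antioxidant genes and of several ABCC genes, was at 144.3 ± 4.84 and 59.8 ± 4.33 TPM (-1.26), and HNF4A, a regulator of hepatocyte identity, at 98.1 ± 2.11 and 40.6 ± 2.25 TPM (-1.25; all SD, n = 3). On the median-of-ratios scale AHR stayed called (-2.43), while NFE2L2 (-0.81) and HNF4A (-0.80) were under the limit. No link between these regulators and the ABC genes was tested.

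Among 14 partner proteins 13 were tested, 6 called lower and 2 higher (all genes, 23.7% and 6.82%), with a median of -0.81. FECH, the ferrochelatase of haem synthesis, which forms a complex with ABCB10, was at 40.7 ± 1.99 and 6.19 ± 0.555 TPM (-2.54). HBS1L, which rescues stalled ribosomes with PELO ahead of their splitting by ABCE1, was at 87.5 ± 3.87 and 27.1 ± 1.94 TPM (-1.65). EIF2S1, the eIF2 subunit of the complex that ABCF1 binds, was at 134.2 ± 2.13 and 66.1 ± 4.55 TPM (-1.01; all SD, n = 3). On the median-of-ratios scale FECH (-2.12) and HBS1L (-1.21) stayed called and EIF2S1 (-0.56) did not, and HBS1L was not called after the trend was removed (-0.93). PELO itself, at 20.2 ± 1.42 and 17.9 ± 5.18 TPM, did not pass. The 2 partners called higher were APOA1, with a log2 fold change of 1.11, and KCNJ8, with 1.37.

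**Figure D5:**
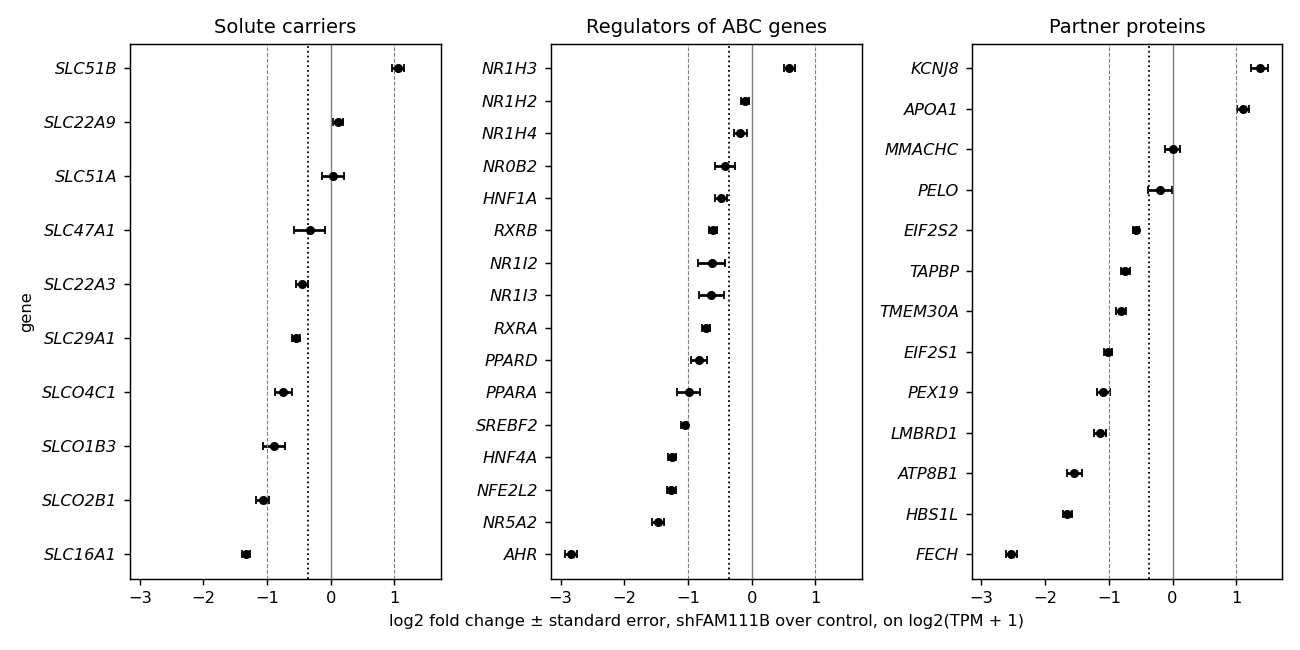
Log2 fold change ± standard error (horizontal axis, shFAM111B over control, on log2(TPM + 1)) of the tested solute carriers, regulators of ABC genes and partner proteins (vertical axes). Dashed lines mark 2-fold and the dotted line the median of all tested genes, -0.36. AHR (-2.83) and FECH (-2.54) are the lowest points of their panels.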

How the data were processed

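Poly(A) RNA of Huh7 cells was sequenced in 6 libraries. The authors deposited TPM per gene and library. The submitters' processing notes name RSEM, DESeq2 and hg38 without versions, and the annotation is not given in the sources used here. The table's group means and the authors' own comparison (fold changes and p-values) were not used. The sample labels name a stranded mRNA kit and the study a TruSeq kit.

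Genes that reached 1 TPM in 3 or more libraries were tested on log2(TPM + 1) in limma 3.58.1 (R 4.3.3; lmFit, and eBayes with a trend, no covariates), with Benjamini-Hochberg adjustment over all 14394 genes. Calls needed a fold of 2 and P under 0.05. An edgeR-type count test had been foreseen for counts and was not run, since only TPM were deposited. With 3 against 3 libraries an exact permutation test cannot go below 0.1, so p-values rest on limma's pooled variance and measure only the spread between these libraries. Tables were made in Python 3.11.15 with pandas 2.3.3.

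Gene positions and lengths came from GENCODE v29 (GRCh38) by Ensembl identifier, which 58420 of 60666 genes matched, and promoter windows from RefSeq. Values per library were given for called members, the 5 most abundant members and 10 hepatocyte exporters, and the 3 called genes with the smallest p were named of each related list. Genes outside that rule were named after their values were seen. Members and lists were chosen with earlier results of these data known. The alternatives were other scalings, a length trend removed by loess (span 0.75), other filters and pseudocounts, the replicate number as a block, and leaving out libraries. For 2 tested members no result is reported here, although counts and medians include them.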

Additional observations from a re-analysis of the deposited data

Results flagged for a closer look

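Of the ABC-named entries outside the tests of the ABC genes (untested members and entries that are no members), 3 had an shFAM111B library that reached 1 TPM and stood above every control library. ABCB11, untested, reached 12.5 TPM in shFAM111B library 3 against 6.19 TPM in the highest control, with the other 2 shFAM111B libraries at 0.10 and 0.07 TPM. The pseudogene ABCC6P2 reached 21.7 TPM against 15.8 TPM, with all 3 shFAM111B libraries above every control. The pseudogene ABCA11P reached 5.95 TPM in shFAM111B library 2 against 5.39 TPM, while shFAM111B library 3 stood at 2.19 TPM, under every control.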

How the results depend on the processing

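The count of ABC genes called lower, 7 on the deposited scale, was 3 with median-of-ratios or upper-quartile scaling, 2 with quantile normalization, 11 after rescaling over nuclear genes and 1 after removal of the length and expression trend. Over all tested genes 3409 were called lower on the deposited scale, and 1798, 1910 and 1849 with median-of-ratios, upper-quartile and quantile scaling. Rescaling over nuclear genes gave 4180 and removal of the trend 1303. The count of ABC genes called higher was 2 with median-of-ratios or upper-quartile scaling and 3 (ABCA12 included) after removal of the trend. Over all tested genes 981 were called higher on the deposited scale, 2030 and 1899 with those scalings and 1369 after removal of the trend. The median log2 fold change of the ABC genes was -0.11, -0.14 and -0.058 with median-of-ratios, upper-quartile and quantile scaling, -0.56 over nuclear genes, -0.59 with a pseudocount of 0.1, -0.21 with no filter, -0.66 with 1 TPM required in every library, and turned to 0.21 after removal of the trend. The median of all tested genes was 0.028, -0.0062 and -0.030 with median-of-ratios, upper-quartile and quantile scaling, and -0.49 over nuclear genes. It was -0.42 with a pseudocount of 0.1, -0.044 with no filter, -0.37 with 1 TPM in every library and -0.015 after removal of the trend. Leaving out 1 library gave 6 to 8 ABC genes called lower, 1 called higher throughout, and a median from -0.55 to -0.39. All tested genes then had 3362 to 3554 called lower, 918 to 1087 called higher and a median from -0.371 to -0.355. FAM111B gave no value where 1 TPM was required in every library.

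Direction turned in these cases, and the cause was not tested. With median-of-ratios, upper-quartile and quantile scaling, ABCA1 was at 0.44, 0.40 and 0.35, ABCB1 at 0.15, 0.12 and 0.20, ABCB8 at 0.19, 0.16 and 0.20, ABCC6 at 0.24, 0.20 and 0.025, and ABCG5 at 0.16, 0.14 and 0.13. With the trend removed, ABCA1 was at 0.81, ABCA2 at 0.10, ABCA5 at 0.30, ABCB1 at 0.48, ABCB8 at 0.49, ABCB9 at 0.20, ABCC1 at 0.21, ABCC5 at 0.081, ABCC6 at 0.45 and ABCG5 at 0.17. Without single libraries ABCA1 ranged from -0.059 to 0.077, ABCA10 from -0.038 to 0.37 and ABCB4 down to -0.064. ABCB4 was at -0.025 over nuclear genes, and without shFAM111B libraries 1 and 2 it was at -0.13 and ABCA1 at 0.058. Of 471 comparisons of 28 ABC genes with their reported values, 403 kept the direction and the side of the threshold, 35 turned, 23 lost a call and 10 gained one.

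With the replicate number as a block, 7 ABC genes were called lower and 1 higher, beside 3410 and 996 of all tested genes. The ABC median stayed at -0.45. The numbers were not taken to pair the libraries in the main fit. Deviations of same-numbered libraries correlated by 0.054, 0.0349 and 0.0908, and those of the other pairs by -0.0763 to 0.0442. Thus shFAM111B libraries 1 and 3 correlated best with the control of the same number, and shFAM111B library 2 with control library 1 (0.0442). These values do not settle whether the libraries are paired.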
